A study of Mus musculus with 2 samples.

Results

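Aminoacyl-tRNA synthetases are the enzymes that join each amino acid to its tRNA before the ribosome can use it. The 36 genes described here were chosen by name from the 15364 genes of the deposited table. Of these, 20 encode enzymes of the cytosol and 16 encode enzymes of the mitochondrion, whose symbols end in 2. All 36 had counts in all 4 cultures.

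The cells were cultured neural stem cells, taken from hippocampi of 6-week-old male C57BL6/J mice and sorted one by one into plates of 384 wells. Activated cells received FGF2 and EGF at 20 ng/mL. Quiescent cells received BMP4 at 50 ng/mL with FGF2 and no EGF, and were taken as quiescent after 3 days. Cells leaving quiescence were moved to the activation medium with noggin, which blocks BMP4, at 0.5 ug/mL, and were taken at 24 h and 48 h. The control for leaving quiescence was therefore a culture held with BMP4, and noggin was in both exit cultures and in no other. In every culture the cells came from 4 gates along the intensity of punctate autofluorescence, called here low, low-mid, mid-high and high.

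Each condition was 1 culture, so no difference between conditions has a replicate check and none was tested. The intervals given below are exact 95% Poisson or binomial intervals that cover counting error only. The quiescent and 24 h cultures shared 1 plate and the activated and 48 h cultures shared the other, so plate and condition cannot be told apart for activated against quiescent cells and for 48 h against 24 h. The file held 174 quiescent cells, 151 at 24 h, 151 at 48 h and 164 activated cells, with 32 to 46 per gate, where the series text gives 47 per condition. Their summed counts were 4815934, 3046628, 4125228 and 6563487. Counts per spike-in RNA count were 76.6, 55.5, 87.6 and 119 in the same order. All 7 neural stem cell markers were detected in each culture, with sums of 6370 CPM in quiescent, 4221 at 24 h, 3579 at 48 h and 3864 in activated cells. Neuron and neuroblast markers summed to 247, 342, 430 and 369 CPM in that order. The summed markers of microglia, of vessel cells and of fibroblasts each stayed at or below 1.97 CPM. Astrocyte markers summed to 1137 CPM in quiescent cells, 1845 at 24 h, 484 at 48 h and 158 in activated cells, and Olig1 and Olig2 carried most of an oligodendrocyte lineage sum of 1870 to 3665 CPM. The part of these differences in the results below was not tested.

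The cytosolic enzymes supply charged tRNA to ribosomes that read nuclear messages, and the mitochondrial enzymes do so for the few proteins encoded in mitochondrial DNA. Several cytosolic enzymes sit in a multi-synthetase complex held together by the scaffold proteins encoded by Aimp1, Aimp2 and Eef1e1. The transcription factor ATF4, whose translation goes up when uncharged tRNA builds up, is known to act on a set of amino acid genes that includes many cytosolic synthetases. Levels are the counts of a gene scaled to a common total per culture (CPM). A count is 1 tagged 3' end, so it was not divided by gene length. Differences are log2 ratios of CPM + 10, which understate the change of genes at low levels.

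Promoter sequences are shown first, for the list of ATF4-linked genes that the 24 h comparison below uses. The composite element bound by ATF4 with C/EBP partners was searched as TGATGNAA and its reverse complement TTNCATCA in the stretch of 300 bases from 250 before to 50 after each RefSeq start (GRCm38.p6). It was found in 3.97% of 32851 promoters, and in 4.51% of the 27025 genes with a promoter. A promoter was listed for 13 cytosolic and 14 mitochondrial members. The letters were found in 5 of the 13 cytosolic promoters, Aars, Gars, Iars, Tars and Yars, and in 0 of the 14 mitochondrial ones. All 5 belong to the ATF4-linked list of 12 cytosolic genes, of which 8 had a promoter, and 0 of the 5 other cytosolic promoters held them. Windows of 30 bases, 1 for each of the 5 genes, read as follows, on the strand of the gene, with the match in capitals.
Aars, chr8:111033840-111033869, plus strand, match at 10: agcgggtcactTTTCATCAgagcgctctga
Gars, chr6:55037960-55037989, plus strand, match at -30: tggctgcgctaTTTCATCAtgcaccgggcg
Iars, chr13:49682126-49682155, plus strand, match at 8: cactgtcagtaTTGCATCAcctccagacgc
Tars, chr15:11399655-11399684, minus strand, match at -15: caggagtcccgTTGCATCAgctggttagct
Yars, chr4:129189895-129189924, plus strand, match at 4: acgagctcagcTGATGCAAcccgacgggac
Positions count from the RefSeq start listed for the promoter to the first base of the match. For Aars and Yars that start lies downstream of the first base of the gene, at chr8:111027778 and chr4:129189734. The matches shown in Aars, Iars and Yars lie in exons of these genes in GENCODE, and the capitals in Gars and Tars lie in none, though the Tars window reaches into its first exon. The match in Yars is in the forward form and the other 4 shown are in the reverse form. The 250 bases before the Gars start, of which 62.4% are G or C, hold the match close to their 3' end.
Gars, chr6:55037751-55038000, plus strand: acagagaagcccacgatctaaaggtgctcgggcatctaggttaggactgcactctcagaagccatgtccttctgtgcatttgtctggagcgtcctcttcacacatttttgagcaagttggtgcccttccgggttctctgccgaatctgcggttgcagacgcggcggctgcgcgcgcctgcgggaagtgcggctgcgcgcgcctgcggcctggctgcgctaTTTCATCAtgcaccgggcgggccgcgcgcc
These matches are letters in a window, and no binding was measured. The ATF4-linked list was put together from general knowledge with earlier results of these data known, so the counts of matches describe that list only. Whether the element has a part in the 24 h levels was not tested.

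As a group the cytosolic synthetases took the smallest share of counts in quiescent cells and the largest in activated cells. Their summed level was 1126 CPM in quiescent cells (95% interval 1096 to 1156), 1370 at 24 h (1329 to 1412), 1542 at 48 h (1505 to 1581) and 1987 in activated cells (1953 to 2021). No 2 of these intervals overlap. The mitochondrial synthetases summed to 295, 309, 270 and 352 CPM in the same order, which is a narrower range. Single cytosolic genes ran from 20.4 to 164 CPM in quiescent cells and from 42.2 to 225 in activated cells. Mitochondrial genes ran from 1.25 to 111 CPM in quiescent cells and from 4.57 to 102 in activated cells, with a median of 11.6 in quiescent cells.

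**Figure D1:**
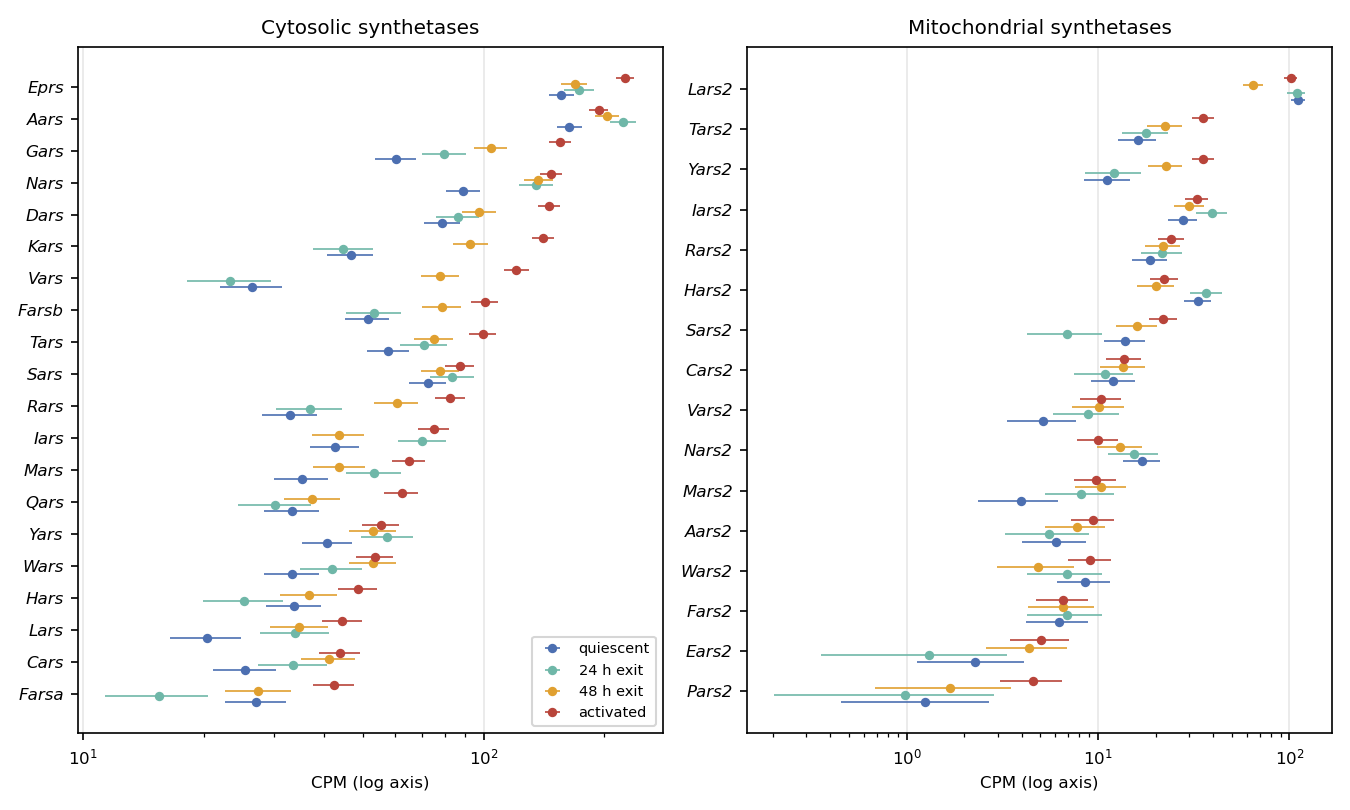
Level of each synthetase in CPM on a log axis in each of the 4 cultures, with exact 95% Poisson intervals, for 20 cytosolic (left) and 16 mitochondrial (right) genes. Every cytosolic gene stands higher in activated than in quiescent cells. On the right Hars2 and Nars2 stand lower, and Lars2 stands lower by no more than counting error.

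The first comparison set activated against quiescent cells. All 20 cytosolic synthetases were higher in activated cells, each with a counting interval above 0 and each in all 4 gates. Their median log2 ratio was 0.69, against 0.07 over the 11011 genes with at least 20 counts, of which 55.1% were higher and 44.9% lower. Of the 20, 13 were at least 1.5-fold higher, where 19.8% of all genes were, and none was 1.5-fold lower, beside 14.3% of all genes. On the spike-in scale, which lifts activated against quiescent cells by 0.63, the median was 1.26 and again all 20 were higher. Over all genes the median was 0.47, with 8552 of 11011 higher.

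Vars, the valine enzyme (chr17:35000907-35016329, GRCm38), differed most. It was at 26.4 CPM in quiescent cells, 23.3 at 24 h, 77.8 at 48 h and 121 in activated cells. Its gates ran from 17.9 to 39.2 CPM in quiescent cells and from 95.7 to 144 in activated cells and did not overlap. The activated minus quiescent log2 ratio was 1.84 (1.64 to 2.05), and the share of cells with a transcript at equal depth was 26.9% in quiescent and 75.3% in activated cells.

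Kars, the lysine enzyme (chr8:111993439-112011354), stood at 46.5, 44.6, 92.6 and 140 CPM in the quiescent, 24 h, 48 h and activated cultures. Like Vars, it was level between quiescent and 24 h cells and then stepped up at 48 h. The activated minus quiescent ratio was 1.41 (1.23 to 1.59). Gars, the glycine enzyme (chr6:55038001-55079504), was at 60.2, 79.8, 104 and 155 CPM, with each culture above the one before it, and a ratio of 1.23 (1.07 to 1.40). Rars, the arginine enzyme, was at 32.8, 36.8, 60.6 and 82.5 CPM, with a ratio of 1.11.

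Eprs and Aars were the most abundant cytosolic genes in every culture. Eprs, whose protein charges both glutamate and proline tRNA, was at 156, 173, 169 and 225 CPM from quiescent through 24 h and 48 h to activated cells, a ratio of 0.50. Aars, the alanine enzyme, was at 164, 223, 203 and 194 CPM, so that its highest culture was 24 h and its activated minus quiescent ratio was only 0.23 (0.11 to 0.35). Nars, the asparagine enzyme, was at 88.9, 135, 137 and 147 CPM, close together in all but the quiescent culture. Dars, the aspartate enzyme, was at 78.7, 86.4, 97.5 and 146 CPM, with a ratio of 0.81. Farsb, the beta chain of the phenylalanine enzyme, was at 51.3, 53.2, 78.6 and 101 CPM, with a ratio of 0.85. The lowest cytosolic ratios after Aars were those of Sars, Yars and Hars, the serine, tyrosine and histidine enzymes, at 0.24, 0.37 and 0.42.

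The mitochondrial synthetases were less uniform. Of 16, 13 were higher in activated cells, beside 55.1% of all genes, and 2 were at least 1.5-fold higher, beside 19.8%. The median was 0.27. With 1 CPM added in place of 10 that median was 0.47, and over the members with at least 100 counts it was 0.14, since most of these genes are at the low levels where the added CPM counts most. Yars2, the tyrosine enzyme, was at 11.2, 12.1, 22.5 and 35.4 CPM in the 4 cultures in order, with a ratio of 1.10 (0.83 to 1.34), against 0.37 for its cytosolic partner Yars. Tars2, the threonine enzyme, was at 16.2, 17.7, 22.3 and 35.4 CPM, with a ratio of 0.79.

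Hars2 and Nars2 were lower in activated cells as a share of counts. Lars2, at -0.12 (-0.27 to 0.03), did not differ beyond counting error on that scale. Scaled to spike-ins, Lars2 was at 0.46. Hars2 was at 33.2 CPM in quiescent, 36.8 at 24 h, 20.1 at 48 h and 22.2 in activated cells, with an activated minus quiescent ratio of -0.42 (-0.66 to -0.18) that was below 0 in all 4 gates. Nars2 was at 17.0, 15.4, 13.1 and 10.1 CPM, with a ratio of -0.43 (-0.70 to -0.16). Scaled to spike-ins, Hars2 was at 0.04 and Nars2 at -0.08, so the lower share of Hars2 was not a lower count per spike-in. Wars2, the tryptophan enzyme, was at 8.51, 6.89, 4.85 and 9.14 CPM, with a ratio of 0.05. Pars2 and Ears2 had the fewest counts, with at most 30 and 33 in a culture.

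Partners of the cytosolic enzymes were also higher in activated cells. All 3 scaffold genes of the multi-synthetase complex were at least 1.5-fold higher, beside 19.8% of all genes. Aimp1 was at 60.7 against 22.8 CPM, Aimp2 at 50.8 against 12.9 CPM and Eef1e1 at 90.7 against 44.4 CPM. The 8 enzymes of the complex had a median ratio of 0.78, and the 12 cytosolic enzymes outside it 0.58. Of 6 elongation factor genes with enough counts, which include Eef1e1 again, 6 were higher, beside 55.1% of all genes. Their median was 0.87. Eef1b2 and Eef1g, of the exchange complex that reloads the factor which brings charged tRNA to the ribosome, had ratios of 1.56 and 1.26, while Eef1a1, which encodes that factor, and Eef2, of the translocation step, had 0.65 and 0.56.

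Genes of tRNA supply showed a weaker difference. Of 32 genes for RNA polymerase III, its factors and tRNA processing, export and modification, 27 were higher (median 0.29), beside 55.1% of all genes. Nsun2, a tRNA cytosine methyltransferase, was at 83.7 against 19.7 CPM, a ratio of 1.66. Polr3k, a polymerase III subunit, had 1.35, and Gtf3c6, a subunit of the factor that recognises tRNA genes, had 0.79. Maf1, which represses polymerase III, was at -0.28, and Xpot, which exports tRNA from the nucleus, was at -0.25. Scaled to spike-ins, 31 of the 32 were higher, with a median of 0.81, beside 8552 of 11011 genes and a median of 0.47 over all genes. Among 18 mitochondrial translation partners, 16 were higher as a share of counts, with a median of 0.24, beside 55.1% of all genes. Mrrf, Tufm and Pus1 led with 0.63, 0.61 and 0.57, Mtif3 and Mtif2 were at -0.34 and -0.19, and Qrsl1 and Mtfmt, which act on charged mitochondrial tRNAs, were at 0.09 and 0.01.

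Cells 24 h into exit and quiescent cells shared a plate, which makes their comparison free of the plate difference. Of the 20 cytosolic synthetases 15 were higher at 24 h as a share of counts and 5 lower, with a median log2 ratio of 0.22. Counting intervals lay above 0 for 9 of them and below 0 for 2. All 12 ATF4-linked genes were higher at 24 h as a share of counts, 9 of them with a counting interval above 0, and their median log2 ratio was 0.38. Of the other 8, 3 were higher and 5 lower, with a median of -0.08. Over the 10462 genes with at least 20 counts the median was -0.01, 48.3% were higher and 51.7% lower. The ATF4-linked list was put together from general knowledge with earlier results of these data known, so its count describes these cultures and supports nothing beyond them.

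On the spike-in scale, where 24 h cells stand 0.46 below quiescent cells, the order was kept but the level was not. The ATF4-linked genes were then at a median of -0.03, with 5 of 12 higher, and the other 8 at -0.42, with 0 of 8 higher. All genes were at -0.29, with 1584 of 10462 higher. The 12 genes thus took a larger share of a smaller pool of RNA at 24 h. Within gates, the ATF4-linked median ran from 0.15 in the low gate to 0.63 in the high gate.

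Iars, the isoleucine enzyme (chr13:49682130-49734267), had the largest ratio. It was at 42.6 CPM in quiescent cells, 70.3 at 24 h, 43.4 at 48 h and 75.1 in activated cells. The 24 h level was close to the activated one, and the 48 h level close to the quiescent one. The gates ran from 37.7 to 46.8 CPM in quiescent cells and from 54.0 to 79.7 at 24 h. The ratio of 0.61 (0.37 to 0.85) was the only 1 of the 36 past 1.5-fold at 24 h, beside 4.53% of all genes. It was 0.21 when scaled to spike-ins. None of the 36 was 1.5-fold lower, beside 6.28% of all genes.

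Nars, Lars and Mars followed with 0.55, 0.53 and 0.49. Nars ran from 79.2 to 109 CPM over the quiescent gates and from 123 to 147 over the 24 h gates. Lars, the leucine enzyme, was at 20.4 CPM in quiescent, 33.8 at 24 h, 34.7 at 48 h and 44.3 in activated cells. Mars, the methionine enzyme, was at 35.1, 53.2, 43.6 and 64.9 CPM. The 3' end of Mars is overlapped on the opposite strand by exons of Ddit3, itself an ATF4 target at 13.1 CPM at 24 h, and whether the counting used strand is not given in the sources used here. Aars ranged from 158 to 171 CPM in the quiescent gates and from 190 to 260 at 24 h, with a ratio of 0.42 (0.28 to 0.57).

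At the other end, Farsa, the alpha chain of the phenylalanine enzyme, was at 27.0 CPM in quiescent cells, 15.4 at 24 h, 27.4 at 48 h and 42.2 in activated cells. Its 24 h ratio was -0.54 (-0.86 to -0.22) and below 0 in all 4 gates. Farsb, whose product pairs with that of Farsa in 1 enzyme, was at 0.04 in the same comparison. Hars was at 33.6, 25.3, 36.6 and 48.5 CPM, with a 24 h ratio of -0.31 (-0.60 to -0.01). Vars and Qars, the glutamine enzyme, were at -0.13 and -0.10 with intervals across 0. Sars2, the mitochondrial serine enzyme, was at 13.9 CPM in quiescent and 6.89 at 24 h, a ratio of -0.50 on 88 counts in all.

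**Figure D2:**
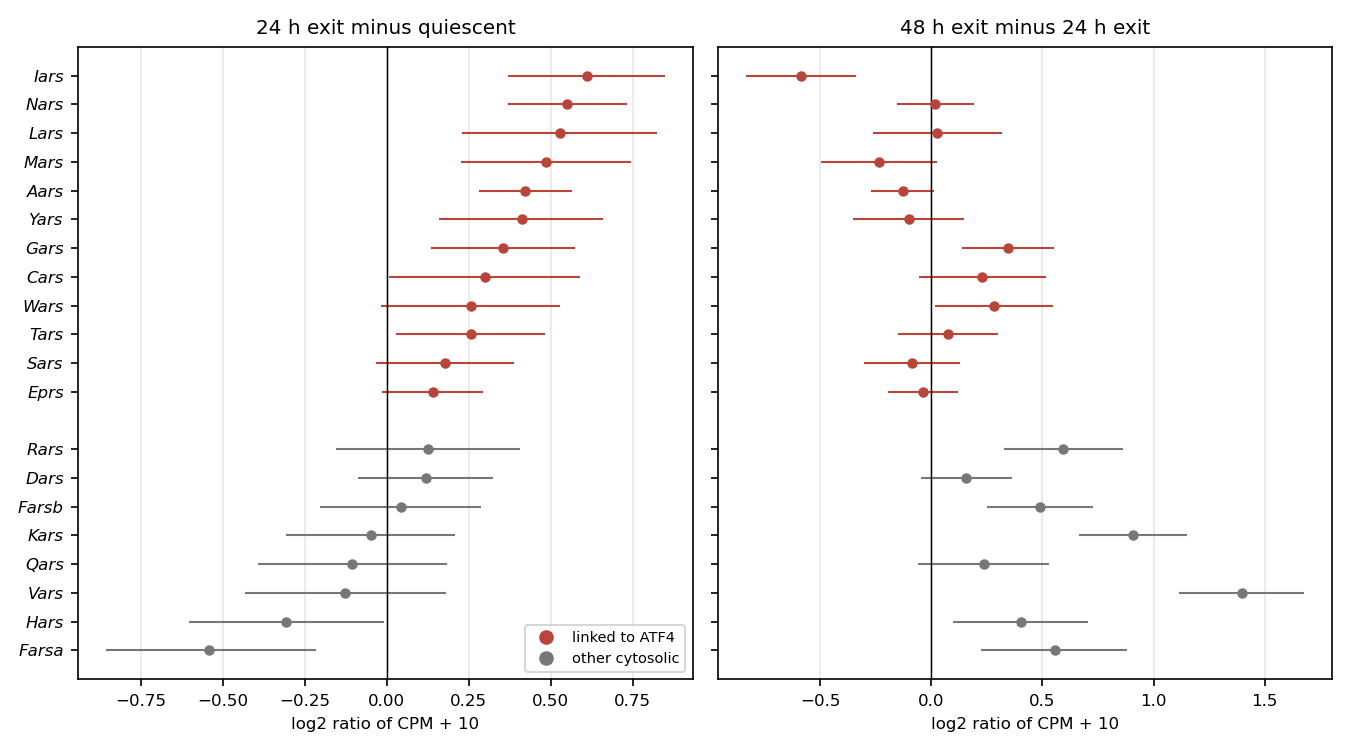
Log2 ratio of CPM + 10 for the 20 cytosolic synthetases, 24 h exit minus quiescent (left) and 48 h minus 24 h exit (right), with exact 95% binomial counting intervals. The 12 ATF4-linked genes (red) all lie above 0 on the left and spread about 0 on the right, while the 8 others (grey) spread about 0 on the left and all lie above 0 on the right. Scaled to spike-ins, 5 of the 12 and 0 of the 8 lie above 0 on the left, and 11 of the 12 and all 8 on the right. Over all genes 1584 of 10462 and 8516 of 10324 were higher on that scale in the same comparisons.

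Most other genes of the amino acid response were also higher at 24 h as a share of counts. Of 27 with enough counts, 23 were higher, with a median of 0.40, and 10 were past 1.5-fold, beside 48.3% and 4.53% of all genes. Psat1, of serine synthesis, was at 106 CPM in quiescent and 283 at 24 h, a ratio of 1.34 (1.19 to 1.49). Asns, asparagine synthetase, was at 21.4 and 63.4 CPM, a ratio of 1.22. Atf4 itself was at 172 and 238 CPM, 0.45 (0.31 to 0.59). Phgdh and Shmt2, of serine and glycine synthesis, were at 0.60 and 0.13, Slc7a5, an amino acid transporter, at 0.39, and Gpt2, an alanine aminotransferase, at -0.57. Slc3a2, the transporter partner of Slc7a5, and Chac1, which breaks down glutathione, were picked after their values were seen. Slc3a2 was at 381 and 850 CPM and Chac1 at 3.74 and 26.6 CPM. The median of the 27 was 0.01 once scaled to spike-ins, with 16 higher. Over all genes it was -0.29, with 1584 of 10462 higher.

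Elongation factors and genes of tRNA supply, most of them higher in activated cells, were not mostly higher at 24 h. The elongation factors had a 24 h median of -0.03, with 3 of 6 higher, and tRNA supply had -0.03, with 14 of 30 higher. Of all genes 48.3% were higher. Of the scaffold genes, Aimp1 was at 0.46, Aimp2 at 0.11 and Eef1e1 at -0.25. Xpot was at 0.11. The mitochondrial synthetases had a 24 h median of 0.06 with 8 of 14 higher, and their translation partners 0.10 with 14 of 18 higher, of which Qrsl1 was at 36.8 against 21.0 CPM, a ratio of 0.59, and Mtfmt at 0.13.

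The comparison of 48 h with 24 h shares the 24 h culture with the one before it, with the opposite sign, so they are not independent. As a share of counts 14 of the 20 cytosolic genes were higher at 48 h and 6 lower, with a median of 0.19. The ATF4-linked cytosolic genes had a median of -0.01, with 6 of 12 higher, and the other 8 were all higher, with a median of 0.52. Over all genes the median was -0.03, with 47.4% higher and 52.6% lower. Among all 36, 4 were at least 1.5-fold higher, beside 11.7% of all genes, and 3 at least 1.5-fold lower, beside 9.89%. Vars led with 1.40 (1.12 to 1.68), then Kars with 0.91 and Rars with 0.59. Yars2 and Farsa both had 0.56, and Sars2 had 0.62 on 87 counts. The values of Rars were less even, since its high gate alone gave -0.12.

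The genes lower at 48 h than at 24 h as a share of counts included Iars at -0.59 (-0.83 to -0.34), Lars2 at -0.68, Hars2 at -0.63 and Iars2 at -0.30. Iars2, the mitochondrial isoleucine enzyme, was at 27.8 CPM in quiescent, 39.4 at 24 h, 30.1 at 48 h and 32.8 in activated cells. As a share of counts, both isoleucine enzymes were thus higher at 24 h than at 48 h. Scaled to spike-ins, 48 h minus 24 h was 0.20 for Iars2 and -0.03 for Iars. The amino acid response genes had a 48 h minus 24 h median of -0.22, with 20 of 28 lower. Atf4 was at -0.41 and Chac1 at -1.40, while Psat1 was at 0.59. The 2 cultures were on different plates. Scaled to spike-ins, 48 h stands 0.66 above 24 h, and Iars was the 1 cytosolic gene still lower, with 11 of the 12 ATF4-linked genes higher (median 0.54). Over all genes 8516 of 10324 were higher on that scale, with a median of 0.38.

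Cells 48 h into exit shared their plate with activated cells. Cytosolic synthetases were lower at 48 h in 19 of 20 cases, with a median of -0.38 against -0.08 over all genes, of which 61.2% were lower and 38.8% higher. None of the 36 was 1.5-fold higher, beside 3.99% of all genes. Only Iars at -0.67 and Qars at -0.61 were at least 1.5-fold lower, beside 7.96% of all genes. Qars was at 33.2 CPM in quiescent, 30.2 at 24 h, 37.3 at 48 h and 62.3 in activated cells. The ATF4-linked genes had a median of -0.21 and the other 8 of -0.51. The complex enzymes had -0.51 and were all 8 lower, with the 3 scaffold genes between -0.46 and -0.33. Elongation factors had -0.60.

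Aars at 0.07 (-0.05 to 0.19) was the 1 cytosolic gene above its activated level, and Wars at -0.01, Yars at -0.06, Cars at -0.08 and Nars at -0.10 had intervals across 0. Among mitochondrial genes Lars2 was lowest at -0.58, Nars2 was at 0.20, Mars2 at 0.05 and Cars2 at -0.01, and the median was -0.10. Scaled to spike-ins, which puts 48 h 0.44 below activated cells, all 20 cytosolic and all 16 mitochondrial members were lower. So were 9162 of 10780 genes, with a median of -0.38. The cytosolic median was -0.78, and the mitochondrial one was -0.43, close to that of all genes. Against quiescent cells, which share no plate with it, the 48 h culture had all 20 cytosolic genes higher, with a median of 0.32, where 48.3% of all genes were higher and 51.7% lower. Then 5 members were at least 1.5-fold higher, beside 11.9% of all genes, and 1, Lars2, was lower, beside 11.6%. All 5 comparisons draw on the same 4 cultures and share them, so they are not independent of each other.

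The 48 h cells were mixed in the authors' clusters. Nearly all quiescent cells (166) were in cluster 1, all activated cells but 1 (163) in cluster 2, and 145 of the 24 h cells in cluster 0. At 48 h, 109 cells were in cluster 3 and 41 in cluster 0, the cluster of the 24 h cells. The clusters were drawn from the same counts, so the values are a description. Cytosolic synthetases summed to 1640 CPM in the 109 cells and to 1256 in the 41, and mitochondrial ones to 282 and 232. Of 20 cytosolic genes 17 were higher in cluster 3, beside 61.1% of all genes, with a median of 0.36 beside 0.11 over all genes, and 3 of the 20 were past 1.5-fold, beside 13.6% of all genes, which is a like share.

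Those 3 were Vars, Kars and Rars. Vars was at 93.2 CPM in cluster 3 and 33.7 in cluster 0, Kars at 102 and 61.9, and Rars at 67.1 and 40.3. The 41 cells in cluster 0 had Iars at 52.5 CPM against 40.5 in cluster 3 and Nars at 140 against 135, and neither interval excluded equality. By the authors' cell cycle phases, 48 h cells in G0 summed to 1141 CPM of cytosolic synthetases (22 cells), near the 1104 of quiescent cells in G0, and those in G1, S and G2M to 1655, 1650 and 1546. Activated cells in G1, S and G2M had 1899, 2019 and 2001. Within each culture the G1, S and G2M sums lay closer together than the 2 cultures did in the same phase.

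Each amino acid with both a cytosolic and a mitochondrial member gave 13 pairs. The cytosolic gene was the higher of the pair in 12 of 13 pairs in quiescent, 48 h and activated cells and in 11 at 24 h. The median ratio of cytosolic to mitochondrial counts was 3.63 in quiescent cells, 4.00 at 24 h, 3.37 at 48 h and 3.40 in activated cells. Aars and Aars2 were farthest apart, with a ratio of 27.2 in quiescent cells and 20.5 in activated cells. Hars and Hars2 were nearly equal in quiescent cells, at 33.6 and 33.2 CPM, and stood at 48.5 and 22.2 in activated cells. The 2 histidine genes lie head to head on chromosome 18 and overlap at their starts.

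Lars was below Lars2 in all 4 cultures, and Hars was below Hars2 at 24 h, at 25.3 against 36.8 CPM. Lars2, the mitochondrial leucine enzyme (chr9:123366927-123462675), was at 111 CPM in quiescent cells, 109 at 24 h, 64.5 at 48 h and 102 in activated cells. It was the only mitochondrial member above 100 CPM, and the Lars to Lars2 ratio was 0.18, 0.31, 0.54 and 0.44 in that order. Its 48 h gates ran from 54.8 to 71.2 CPM, and the lowest gate of the other cultures was at 83.4. Across cells of a culture, its rank correlation with Rn45s, the ribosomal RNA precursor, was 0.18 in quiescent, 0.38 at 24 h, 0.39 at 48 h and 0.43 in activated cells (174, 151, 151 and 164 cells). At 24 h, 48 h and in activated cells Rn45s was the gene most correlated with Lars2, of 4282, 5337 and 6989 genes with at least 100 counts, while in quiescent cells it ranked 57 of 5780, and its 0.18 there was close to the highest of the other members, 0.16. The other members had median correlations with Rn45s between -0.10 and 0.05. All cells of a culture share a library, and the correlation of Lars2 with the cell's total was 0.09, 0.18, 0.33 and 0.21. Rn45s was at 77128, 62210, 56962 and 72711 CPM in the 4 cultures. Its part in the level of Lars2 was not tested.

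The last comparison set the high against the low autofluorescence gate, and is the only one with replication, over 4 cultures of different states. As a share of counts, summed cytosolic synthetases were lower toward the high gate in 3 cultures. From low to high gate they were 1276, 1163, 1124 and 1030 CPM in quiescent cells, 2018, 1613, 1411 and 1305 at 48 h, and 2212, 2142, 2046 and 1798 in activated cells. At 24 h they were 1389, 1430, 1214 and 1441 with no order. The mitochondrial sums showed no common order.

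**Figure D3:**
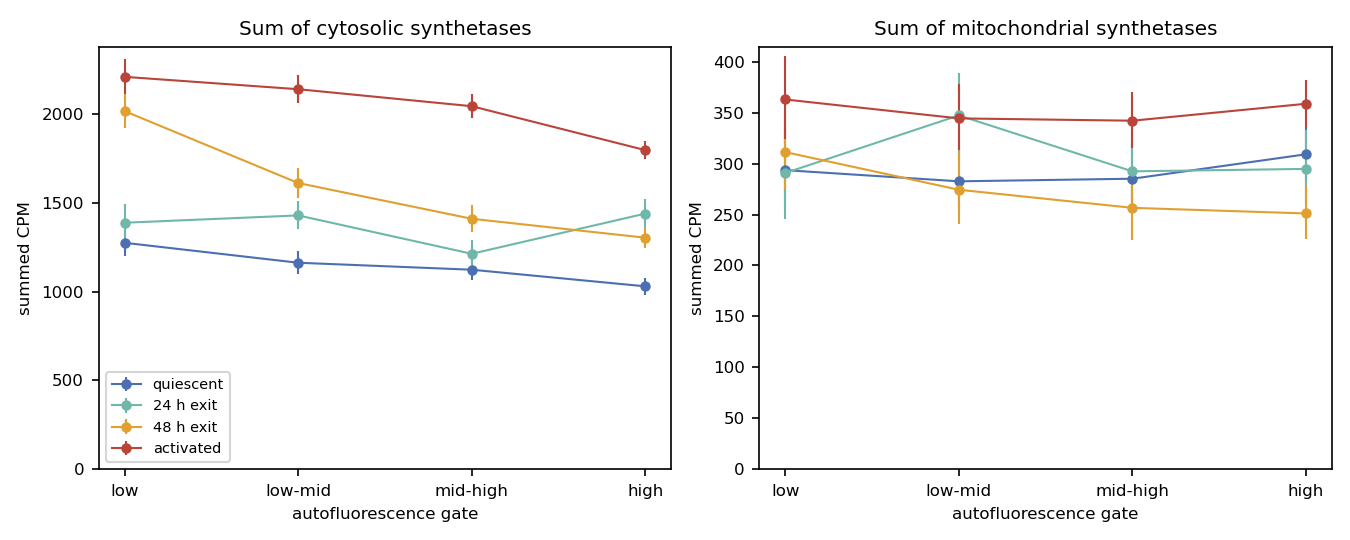
Summed CPM of the 20 cytosolic (left) and 16 mitochondrial (right) synthetases in each autofluorescence gate of each culture, with exact 95% Poisson intervals and axes from 0. The cytosolic sum steps down from the low to the high gate in quiescent, 48 h and activated cells, most of all from 2018 to 1305 CPM at 48 h.

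No synthetase passed the test. In edgeR's quasi-likelihood test with culture as a block, 223 of 7792 genes passed at a Benjamini-Hochberg adjusted p under 0.05, 2.86% in all, with 165 higher (2.12%) and 58 lower (0.744%) in the high gate. Of the 29 members with enough counts, 0 passed and 5 had an unadjusted p under 0.05, beside 1316 (16.9%) of all genes tested, a like share. DESeq2 also called 0, though it gave only 3 members an adjusted p. Of the 20 cytosolic genes 16 had a negative estimate, with a median of -0.19 beside -0.01 over all genes. On totals alone, before scaling by TMM (trimmed mean of M values), the median of all genes was -0.19 in quiescent and -0.07 in 24 h cells. It was -0.18 in 48 h and -0.03 in activated cells. The median gene was thus also lower in the high gate, though by little in activated cells.

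Kars came nearest to the threshold, at 58.3 CPM in the low and 37.7 in the high gate of quiescent cells, 49.8 and 35.3 at 24 h, 132 and 72.9 at 48 h, and 165 and 116 in activated cells. The estimate was -0.49 ± 0.14 (SE of the edgeR fit, with variance shared over genes), with an edgeR adjusted p of 0.0758. The value was lower in 4 of 4 cultures on either scale. Lars2 was at 98.7 and 122, 93.7 and 108, 54.8 and 64.8, and 93.1 and 123 CPM in the same order. Its estimate was 0.45 ± 0.14 (SE of the same fit), with an edgeR adjusted p of 0.0818 and a higher value in 4 of 4 cultures. A linear trend over all 4 gates called both, with edgeR adjusted p of 0.00728 for Kars and 0.0162 for Lars2. These were 2 of 30 members, beside 633 of 8702 genes called in all, a like share. That fit takes the gates of a culture as separate sums, though the culture is the unit of replication. Library totals without TMM called Kars alone of 29 members, at an edgeR adjusted p of 0.0281, beside 342 of 7792 genes.

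Vars at -0.44, Dars at -0.36 and Wars at -0.40 were lower in 4 of 4 cultures with edgeR adjusted p of 0.155, 0.205 and 0.244. Farsb at -0.28 and Nars at -0.27 were also lower in 4 of 4, with 0.347 and 0.322 by edgeR, and Qars at 0.23 was higher in 4 of 4, with an edgeR adjusted p of 0.590. How many of all genes had the same sign in 4 of 4 cultures was not counted. Without the 48 h culture the test called 19 genes in all, against 223 with it, and the smallest adjusted p of a member was 0.308.

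**Figure D4:**
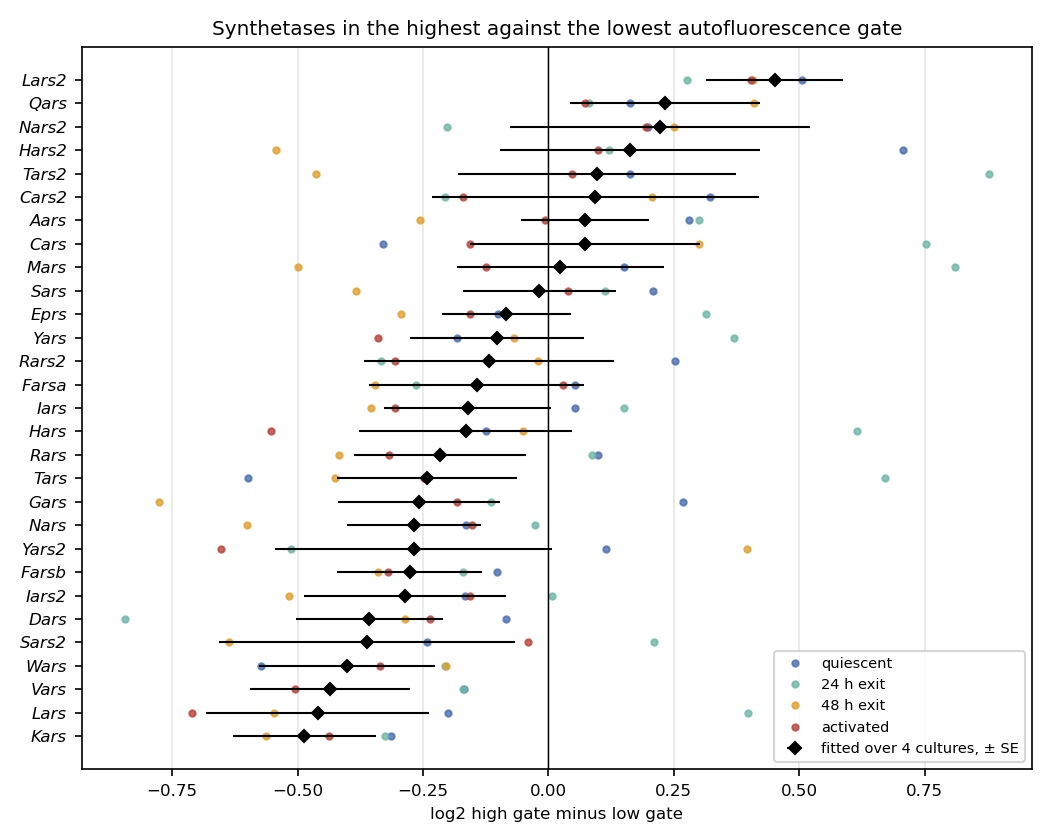
High minus low gate log2 difference of the 29 synthetases tested, with the edgeR estimate and its standard error (black) and the value in each culture on TMM-scaled CPM + 10 (colours). Kars, Vars, Wars, Dars, Farsb and Nars lie below 0 and Lars2 and Qars above 0 in all 4 cultures, and none passes the adjusted threshold. The share of all genes with the same sign in all 4 cultures was not counted.

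Some counts are uncertain. The last 1000 bases of Aars, Mars, Farsb, Yars, Cars2, Fars2 and Iars2 overlap exons of another gene (Exosc6, Ddit3, Sgpp2, C77080, Naxd, Nrn1 and Rab3gap2 in that order), on the same strand for Aars and on the opposite strand for the rest. At this depth a mitochondrial gene rests on few molecules, with 6 counts of Pars2 in quiescent cells and 3 at 24 h, and the ratios of such genes rest on these few counts. Fewer transcripts per cell and a smaller share of a larger pool give the same CPM, and the spike-in values above are the only measure here that separates them.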

How the data were processed

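Single cells were profiled by SORT-seq, which tags 3' ends with molecular identifiers, on 2 plates. The authors deposited tables of expected counts (molecules per gene, with a correction for the chance that several carry one of the 4096 identifiers) for each plate and for the 640 kept cells, and 128 wells without a condition were left out. Per the file headers, the per-cell table gives condition, gate, cluster and phase, the percent of mitochondrial and ribosomal counts, and fluorescence intensity in arbitrary units. Neither of the last 2 entered a test. The submitters' processing notes name Seurat 4.1.1, BWA 0.7.15 and R 4.2.0, and the builds mm10 and hg19, without their roles. The strand setting is not given in the sources used here.

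Here, counts were summed per culture and scaled to CPM, with 10 CPM added for log2 ratios over genes with at least 20 counts. Ratios have exact conditional binomial intervals. Shares of cells were taken after thinning to 12488 counts per cell, which kept 156, 122, 140 and 158 cells of the quiescent, 24 h, 48 h and activated cultures. Sums per culture and gate were rounded and tested with edgeR 4.0.16 in R 4.3.3 (TMM, filterByExpr, culture as a block, 3 residual degrees of freedom, common biological coefficient of variation 0.122, median prior degrees of freedom 16.4). The culture is the unit of replication. The p-values and standard errors of a gene combine its own spread between these cultures with a variance shared over all genes. With 3 residual against 16.4 prior degrees of freedom, the shared part weighs more. DESeq2 1.42.0 was an alternative. On simulated data with 1 common dispersion for all genes, the gate test was run on 7773 genes and made 1 false call. Of changed genes past the count filter, it found 31.0% of 58 at a fold of 1.5. It found 84.7% of 59 at a fold of 2 and 100% of 51 at a fold of 4. Changed genes removed by that filter were left out of these shares. All else ran in Python 3.11.15, with scipy 1.17.1 for intervals, matplotlib 3.10.9 for plots, and pandas 2.3.3 on numpy 2.4.6 for tables.

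All members are accounted for. Named with values in each culture were members at 100 CPM or more, the 4 largest and 4 smallest ratios per comparison among those with at least 100 counts, and pairs of these; from each pathway list the 3 largest and 2 smallest activated against quiescent ratios, with Atf4, Asns, Xpot, Aimp1, Aimp2, Eef1e1, Qrsl1 and Mtfmt always. The members and lists were chosen with earlier results of these data known. Gene positions and promoters are from RefSeq, GRCm38.p6, and exon overlaps from GENCODE on GRCm38. One promoter window is not reported here.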

Additional observations from a re-analysis of the deposited data

Results flagged for a closer look

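In the high minus low gate difference, Nars2 at 24 h stood apart from the other cultures. It was at -0.20 there on TMM-scaled CPM + 10, against 0.20 in quiescent, 0.25 at 48 h and 0.19 in activated cells. It was the only 1 of 29 genes checked where the gap to the nearest culture exceeded Dixon's 95% critical share of the whole range over the 4 cultures, and chance alone puts about 1 in 20 genes past that limit. The values rest on 47 counts of Nars2 in all 24 h cells.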

How the results depend on the processing

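Of 31 ratios of single genes past 1.5-fold, with 279 values under the alternatives, 278 kept their sign. Rars, 48 h against 24 h, was at -0.12 in the high gate alone. No paired analysis of the conditions was possible because each has 1 culture. The gate test has the culture as a block.

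Comparisons are in the order activated against quiescent, 24 h against quiescent, 48 h against 24 h, 48 h against activated and 48 h against quiescent. Scaled to spike-in counts, cytosolic medians were 1.26, -0.18, 0.71, -0.78 and 0.49 and mitochondrial ones 0.58, -0.18, 0.40, -0.43 and 0.22, and at 24 h the ATF4-linked median was -0.031 and that of the other cytosolic genes -0.42.

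With 1 CPM added, the activated against quiescent medians were 0.79 cytosolic and 0.47 mitochondrial, with 1 member past 1.5-fold lower. The 24 h against quiescent counts were 6 higher and 2 lower. For 48 h against 24 h the mitochondrial median was 0.18 and 7 members were higher, 10 were lower for 48 h against activated, and 13 were higher and 3 lower for 48 h against quiescent. At a fold of 2, 5, 0, 1 and 1 members were higher in the first, the second, the third and the fifth comparison, and 0 were lower in the last 3. The shares of all genes past the fold under these settings were not counted. The counts of members therefore cannot be set against a background.

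In the low gate alone, cytosolic medians were 0.64, 0.072, 0.47, -0.18 and 0.49, mitochondrial ones 0.23, 0.19 and 0.24 in the first, the third and the fifth comparison, and the ATF4-linked one 0.15 at 24 h. In the low-mid gate the mitochondrial medians of the second and the third were 0.19 and -0.011, and the other cytosolic genes were at 0.0065 at 24 h. In the mid-high gate the first cytosolic median was 0.74 and the last 2 mitochondrial ones -0.29 and 0.019. In the high gate the first 2 mitochondrial medians were 0.22 and -0.055, the ATF4-linked one at 24 h 0.63, and the cytosolic one for 48 h against 24 h -0.082.

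Thinned to equal depth, the first and the third mitochondrial median were 0.16 and -0.030, cytosolic sums were 1205 CPM in quiescent, 1634 at 48 h and 2113 in activated cells, and the quiescent mitochondrial sum was 314. With at least 100 counts those 2 medians were 0.14 and -0.14. With mitochondrial and ribosomal protein genes left out of totals, the first mitochondrial median was 0.30, those of the fifth comparison, cytosolic and mitochondrial, 0.46 and 0.23, cytosolic sums 1519, 1931, 2298 and 2683 and mitochondrial sums 398, 435, 402 and 475 CPM from quiescent to activated cells. Leaving Lars2 out, added after seeing the data, gave mitochondrial medians of 0.28, 0.062, 0.13, -0.098 and 0.13. In the gate test, library totals called 1 of 29 members, beside 342 of 7792 genes. A trend over 4 gates called 2 of 30, beside 633 of 8702 genes. The causes were not tested. With 1 culture per condition, counting error alone sets the intervals, and low counts limit the mitochondrial genes.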
